A study of Homo sapiens with 12 samples.

Results

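The comparison is between CD24-high tumour cells from mice given a fasting-mimicking diet and CD24-high tumour cells from mice on standard diet. It uses 6 of the 12 libraries of the series, 3 for each diet, taken by their titles. Every gene that passed a count filter was examined, 15461 of the 26475 gene symbols in the deposited tables, and 11014 symbols with few reads were left out. SUM159, also written SUM159PT, is a human triple-negative breast cancer cell line with mesenchymal features. The cells were injected into female NOD scid gamma mice 8 weeks of age, animals that lack mature T, B and natural killer cells, and the tumours grew under a standard diet or under cycles of a fasting-mimicking diet (FMD) on 4 consecutive days per week. Cells taken from the tumours were sorted on antibody staining for the human surface proteins CD44 and CD24, and the 6 libraries described here hold the fraction called CD44+ and CD24-high. The remaining 6 libraries hold the CD24-low fraction, 3 for each diet, and entered the fit and the test of whether the diet difference depends on the fraction. The labels give the control group's treatment as untreated, name no genetic change in the tumour cells of any group, and do not say whether replicates came from separate mice, so each p-value measures only the spread between these libraries.

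A fasting-mimicking diet is low in calories, sugar and protein, and is meant to lower blood glucose, insulin and insulin-like growth factor 1 as fasting does. Cells with little glucose and insulin signal typically release FOXO factors and AMP-activated kinase from restraint, burn fatty acids, recycle their contents in lysosomes and divide less. In breast cancer, low surface CD24 together with CD44 is used to enrich cells with tumour-initiating capacity, and CD24-high cells are taken as the more differentiated remainder. The question here is what the diet changed in the fraction sorted as CD24-high rather than in the CD24-low fraction. The labels do not give the share of the tumour that either fraction made up.

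The libraries held 29049144 to 37779053 counts assigned to genes. Between 1.67% and 1.75% of the reads assigned to genes lay on the opposite strand, and the 10 most abundant genes took 6.94% to 8% of counts in each library. The 13 genes chosen as markers of SUM159 cells, among them VIM, AXL and CAV1, summed to 10028 to 12975 in counts-per-million units (CPM) in the control libraries and to 10278 to 12197 CPM in the FMD libraries. CD44 stood at 804 to 1179 CPM under control diet and at 901 to 1229 CPM under FMD. CD24, the protein used to sort these cells, was scarce as RNA, at 1.41 to 2.86 CPM and 1.43 to 3.27 CPM. Its mean was 1.90 CPM in the CD24-high and 2.15 CPM in the CD24-low control libraries, and 2.11 and 1.59 CPM under FMD, so the RNA was not higher in the control fraction labelled CD24-high. One control library stood nearer to the FMD libraries than to the other 2 controls. On the first principal component, which held 34.4% of the variance of the 6 libraries, control replicate 2 lay at 14.5, between the FMD libraries at 10 to 28.3, and control replicates 1 and 3 lay at -39.5 and -31.9. The counts of called genes and some of the values that this library moves are also given without it. Other genes described below moved as well. Without it the log2 fold change of F13A1 went from 2.96 to 4.30 and that of BMP2 from 0.93 to 1.93.

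The diet difference in CD24-high cells was small against the spread between replicates. In the edgeR quasi-likelihood fit, 0 of 15461 genes passed a Benjamini-Hochberg adjusted p of 0.05, that is 0% of the genes tested, and the smallest adjusted p was 0.142, for ID1. At an unadjusted p under 0.05 there were 501 genes higher and 541 lower under FMD. DESeq2, run on the same counts, called 74 of 14888 genes, or 0.497%, of which 34 were higher and 40 lower. All 74 had an unadjusted edgeR p under 0.05, and in 72 of them the libraries of the 2 diets did not overlap. Over the whole table, all 3 FMD libraries lay above all 3 controls for 692 genes (4.48%) and below them for 729 genes (4.72%). The median absolute log2 fold change was 0.138, against 0.284 for the same diets in CD24-low cells. The CD24-low FMD libraries held fewer counts, 17736610 to 18579816, against 29820825 to 47587142 in the CD24-low controls. The part of this depth in the CD24-low differences was not tested. The DESeq2 count moved with single libraries: it was 299 genes without control replicate 2, 88 without FMD replicate 3, and 12 to 21 when any one of the other 4 libraries was left out. Of the 74 genes, 4 were called in all 6 of these refits, namely ID1, NNMT, TP53AIP1 and FMO2.

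ID1 had the smallest p of all genes in edgeR. It encodes an inhibitor of basic helix-loop-helix transcription factors and is a direct target of bone morphogenetic protein (BMP) signalling. It stood at 96.3, 151 and 88.7 CPM in control replicates 1, 2 and 3 and at 314, 295 and 297 CPM in the FMD replicates. The FMD libraries lay close together and every one was above every control. The log2 fold change was 1.43 ± 0.21 (SE), or 2.7-fold, with an adjusted p of 0.142 in edgeR and 2.55e-07 in DESeq2. Across the 14 alternatives its adjusted p ran from 2.55e-07 to 0.812 and its log2 fold change from 1.29 to 1.72. Without control replicate 2 edgeR called ID1, with an adjusted p of 0.0057. The gene lies on chromosome 20 at 31605289 to 31606510 (GRCh38). Its promoter is shown because it belongs to the gene with the smallest p, and because it carries both of the short motifs counted below in the G2/M gene list. The run is the RefSeq promoter window of the GRCh38.p14 annotation, chr20:31605039-31605338, plus strand, 5′ to 3′, with the CCAAT box (read as ATTGG on the opposite strand) and the cell-cycle homology element TTTGAA in capitals.
ID1: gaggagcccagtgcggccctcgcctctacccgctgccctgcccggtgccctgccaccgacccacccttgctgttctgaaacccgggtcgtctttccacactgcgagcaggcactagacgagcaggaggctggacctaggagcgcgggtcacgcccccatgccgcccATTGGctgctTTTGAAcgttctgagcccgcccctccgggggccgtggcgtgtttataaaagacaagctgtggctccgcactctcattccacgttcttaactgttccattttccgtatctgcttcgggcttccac
The CCAAT box began at -84 and the TTTGAA element at -74 from the annotated start site. CCAAT, searched on both strands, occurred in 35.7% of all 27305 promoter windows of this length, and TTTGAA in 15.4%. Among the 12 higher genes with the smallest p, CCAAT occurred in 3 of 9 windows and TTTGAA in 1. Among the 12 lower genes with the smallest p, CCAAT occurred in 1 of 9 windows and TTTGAA in 0.

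**Figure D1:**
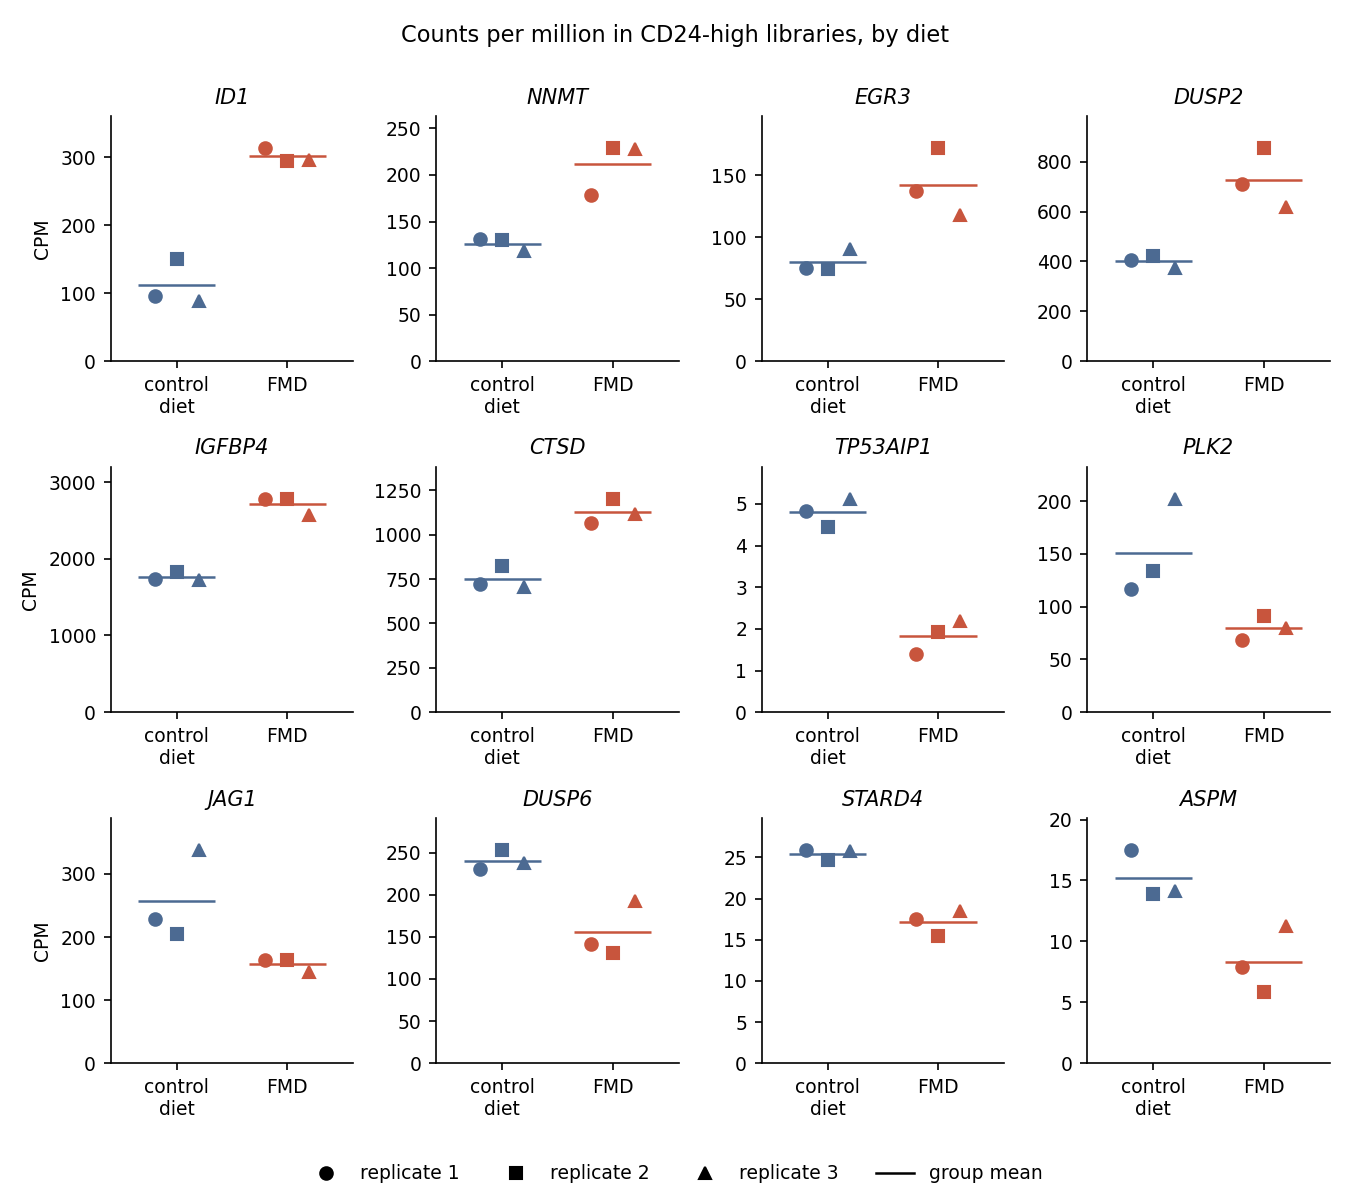
CPM (vertical axis from 0) of 12 genes in the 6 CD24-high libraries, by diet. Each point is a library, its shape the replicate number, and the line is the group mean; in every panel all 3 FMD points lie on one side of all 3 control points, with ID1 at 88.7 to 151 CPM in controls and 295 to 314 CPM under FMD.

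Of 26 tested genes of the BMP and ID list, 19 had a positive and 7 a negative log2 difference. In this list 6 genes had all FMD libraries above all controls and 0 below, against 4.48% and 4.72% of all genes, and none passed in edgeR. ID3, which like ID1 blocks helix-loop-helix factors, stood at 159, 284 and 242 CPM in controls and 565, 578 and 321 CPM under FMD, a log2 difference of 1.10 ± 0.32, and DESeq2 called it. ID2 stood at 26, 113 and 35.3 CPM in controls and 172, 131 and 114 CPM under FMD, so that control replicate 2 nearly reached the FMD range; the log2 difference was 1.26 with all libraries and 2.19 without that one. Several feedback inhibitors, which BMP signals switch on, are in the list. ID2, BAMBI, SMAD7 and BMP2 were chosen after their values were seen. BAMBI, a decoy receptor, stood at 3.03 to 6.52 CPM in controls and 6.91 to 11.6 CPM under FMD. SMAD6 and SMAD7, inhibitory SMADs, had log2 differences of 1.08 ± 0.38 and 1.08 ± 0.39, and their libraries overlapped. The receptor-activated SMAD9 stood at 1.37 to 1.72 CPM and 2.52 to 3.97 CPM. The ligand BMP2 overlapped widely, at 65.3 to 264 CPM in controls and 151 to 360 CPM under FMD. Among BMP antagonists, GREM1 and CHRD had log2 differences of -1.05 ± 1.10 and -0.09 ± 1.66, and NOG and FST of 0.24 ± 0.45 and 0.19 ± 1.21. The ligand BMP4 had -0.63 ± 0.35, and the ligands BMP6 and BMP7 had 0.58 ± 1.06 and 0.21 ± 0.42. The libraries of all these genes overlapped. The list's median log2 difference was 0.12, against 0.00 over all genes, and it turned to -0.12 without FMD replicate 1.

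NNMT, nicotinamide N-methyltransferase, which uses S-adenosylmethionine to methylate nicotinamide, had the second smallest p in edgeR. It stood at 131, 130 and 118 CPM in controls and at 179, 229 and 228 CPM under FMD. The log2 difference was 0.74 ± 0.12, with an adjusted p of 0.161 in edgeR and 1.66e-05 in DESeq2, and 1.66e-05 to 0.812 over all alternatives. NNMT lies on chromosome 11 at 114257806 to 114313536. IGFBP4, a secreted protein that binds insulin-like growth factors, was the most abundant of the 12 genes with the smallest p in this direction. It stood at 1737, 1824 and 1717 CPM in controls and at 2774, 2780 and 2577 CPM under FMD, 1.54-fold higher. The other genes of this set that DESeq2 called included SLC11A2, an iron transporter (29.1 to 36.3 CPM against 50.7 to 65.1 CPM), the transcriptional repressor KLF11 (25.1 to 29.8 against 38.7 to 54 CPM), and GPAM, the first enzyme of glycerolipid synthesis (11.9 to 12.6 against 17.8 to 20.7 CPM).

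Immediate early genes, which growth factor and stress signals induce within minutes and without new protein synthesis, did not pass in edgeR, and DESeq2 called 2 of them. All FMD libraries lay above all controls for 8 of 33 tested members (24.2%, against 4.48% of all genes) and below for 0. Of the 33 log2 differences 27 were positive, against 49% over all genes, with a median of 0.20. EGR3, a zinc finger factor, stood at 75.3, 74.2 and 90.5 CPM in controls and at 137, 172 and 118 CPM under FMD. DUSP2, a phosphatase of MAP kinases, stood at 405, 422 and 373 CPM in controls and at 712, 855 and 618 CPM under FMD. These 2 were called by DESeq2, at log2 differences of 0.83 ± 0.16 and 0.86 ± 0.17 in edgeR. DUSP6, which inactivates ERK and is itself induced by ERK signalling, was on the opposite side. It stood at 230, 253 and 237 CPM in controls and at 142, 131 and 193 CPM under FMD, a log2 difference of -0.63 ± 0.15. The list's median was 0.19 to 0.25 over the alternatives.

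Of 55 tested genes of fatty acid use, 39 had a positive log2 difference and none passed in edgeR. All FMD libraries lay above all controls for 10 (18.2%, against 4.48% of all genes) and below for 2 (3.64%, against 4.72%), and DESeq2 called 1, CPT1A. CPT1A, which loads fatty acids onto carnitine for entry into mitochondria, stood at 20.3, 34.8 and 34.1 CPM in controls and at 77.1, 56.1 and 44.5 CPM under FMD, a log2 difference of 0.99 ± 0.26. ACADVL, the first dehydrogenase of long-chain oxidation, stood at 152 to 221 CPM in controls and at 257 to 344 CPM under FMD. PDK4, a kinase that shuts pyruvate out of the citrate cycle and rises in fasting in many tissues, was rare but separated, at 0.982 to 2.03 CPM and 2.63 to 6.21 CPM. OXCT1, which uses ketone bodies, lay lower, at 53.6 to 79.4 CPM in controls and 51 to 53 CPM under FMD. The list's median log2 difference was 0.09.

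None of the 31 tested hypoxia-response genes passed in edgeR or DESeq2. Of these, 29 had a positive log2 difference, the median was 0.34, and 5 had all FMD libraries above all controls (16.1%, against 4.48% of all genes), with 0 below. On their mean level, control replicate 2 stood with the FMD libraries. ANGPTL4, a lipase inhibitor induced by both hypoxia and fatty acids, stood at 12.7, 59.3 and 23.4 CPM in controls and at 107, 141 and 109 CPM under FMD, a log2 difference of 1.90 that was 2.73 without control replicate 2. The mean level of the list, as log2(CPM + 1), was 5.895, 6.465 and 5.935 in control replicates 1, 2 and 3 and 6.480, 6.417 and 6.536 under FMD. Without control replicate 2 the median was 0.57, and without control replicate 3 it was 0.22. HMOX1, the heme oxygenase induced by oxidative stress, showed the same arrangement, at 36.2, 240 and 104 CPM in controls and 686, 919 and 249 CPM under FMD, and its log2 difference was 2.29 and, without control replicate 2, 3.15. FTH1, the ferritin heavy chain that stores iron, stood at 3637, 6322 and 3836 CPM in controls and at 8181, 8147 and 7435 CPM under FMD, a log2 difference of 0.78 and, without control replicate 2, of 1.10. Glycolysis genes had 22 of 23 log2 differences above 0 with a median of 0.14, which ran from 0.04 without control replicate 3 to 0.31 without control replicate 2. Only HK1 among them was separated upward, 4.35% against 4.48% of all genes.

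Of 47 tested lysosome and autophagy genes, 40 had a positive and 7 a negative log2 difference, with a median of 0.16. Their libraries were separated upward for 7 (14.9%, against 4.48% of all genes) and downward for 1 (2.13%, against 4.72%). None passed in edgeR. CTSD, the lysosomal protease cathepsin D, stood at 720, 824 and 706 CPM in controls and at 1064, 1201 and 1117 CPM under FMD, and DESeq2 called it. CTSB, cathepsin B, stood at 551 to 849 CPM in controls and 937 to 1256 CPM under FMD. Cathepsins are also abundant in macrophages. The 16 myeloid markers summed to 31.3 to 47.4 CPM in controls and to 44 to 64.2 CPM under FMD, with 7 of the 16 at a mean under 1 CPM. Of the 13 tested, 12 had a positive and 1 a negative log2 difference. Separated upward were 3, SPI1, LYZ and MRC1 (23.1%, against 4.48% of all genes), and downward 0. PTPRC overlapped, at 1.76 to 4.34 CPM in controls and 2.08 to 2.62 CPM under FMD. DESeq2 called SPI1, the myeloid transcription factor, and F13A1, a macrophage gene with 11 counts in the control libraries and 97 under FMD. The part of myeloid RNA in the lysosome result was not tested.

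Interferon-response and NF-kB genes had medians of 0.15 each, and none passed in edgeR. The interferon median ran from 0.10 without FMD replicate 3 to 0.24 without control replicate 3, and the NF-kB median from 0.07 without FMD replicate 2 to 0.25 without control replicate 2. The mean NF-kB level, as log2(CPM + 1), was 7.699 in control replicate 2, above the FMD libraries at 7.386 to 7.612. IFI6, a mitochondrial protein induced by interferon, stood at 111, 82.9 and 140 CPM in controls and at 204, 271 and 249 CPM under FMD, and DESeq2 called it, with a log2 difference of 1.12 ± 0.29. RELB, an NF-kB subunit, stood at 49.8, 75.2 and 54.8 CPM in controls and at 87.1, 87.5 and 87.2 CPM under FMD. These 2 had the smallest p of their lists, of which 4 of 33 (12.1%) and 3 of 33 genes (9.09%) were separated upward, against 4.48% of all genes, and 0 downward.

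**Figure D2:**
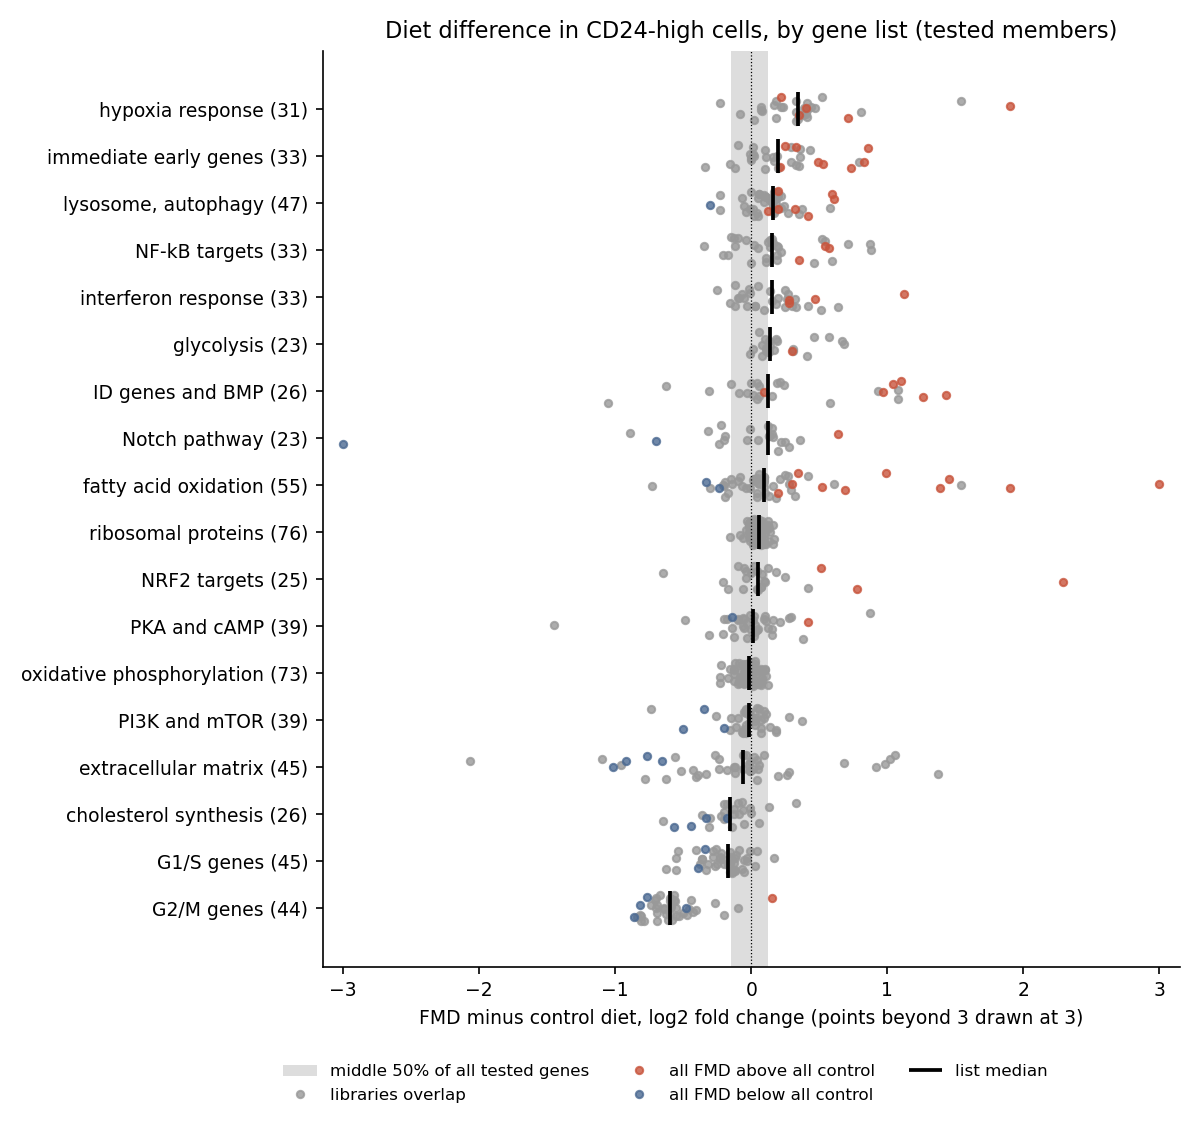
Log2 fold change, FMD minus control, of every tested gene in 18 lists (numbers tested in parentheses); points beyond 3 are drawn at 3. Red and blue points mark genes whose libraries do not overlap, black bars the list medians, and the grey band the middle 50% of all tested genes; the G2/M list lies lowest, with a median of -0.60, and the hypoxia list highest, at 0.34.

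Of 44 tested genes of the G2/M list, 43 had a negative log2 difference, the median was -0.60, and none passed in edgeR or DESeq2. ASPM, a spindle pole protein, stood at 17.5, 13.9 and 14.1 CPM in controls and at 7.87, 5.82 and 11.3 CPM under FMD, a log2 difference of -0.86 ± 0.29. HMMR, a hyaluronan receptor that also organises the spindle, stood at 14.5, 12.3 and 7.96 CPM in controls and at 5.95, 5.55 and 8.11 CPM under FMD. MKI67, the proliferation antigen Ki-67, stood at 153, 112 and 107 CPM in controls and at 74.3, 45.9 and 98.3 CPM under FMD. CDK1, the mitotic kinase, overlapped, at 22.5 to 42.6 CPM and 13.9 to 24.4 CPM. Only 4 of the 44 genes had all FMD libraries below all controls, 9.09% against 4.72% of all genes. The list's mean log2(CPM + 1) was 5.295, 4.898 and 4.525 in the controls and 4.348, 3.964 and 4.746 under FMD, so FMD replicate 3 exceeded control replicate 3. The median ran from -0.88 without FMD replicate 3 to -0.34 without control replicate 1. Bulk libraries cannot tell fewer dividing cells from less of each RNA per cell.

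The promoters of HMMR and ASPM are shown because each of 2 motifs occurred in most of the windows found for this list. Genes with both motifs were not counted. RefSeq windows were found for 37 of the 44 genes, and CCAAT occurred in 78.4% of them and TTTGAA in 70.3%, against 36.6% and 10.3% of the 11789 tested genes with a window. TTTGAA is the cell-cycle homology region, bound by the DREAM and MuvB complexes that hold mitotic genes down in resting cells. Capitals mark both motifs on either strand, in chr5:163460382-163460681 (plus strand) for HMMR and chr1:197146620-197146919 (minus strand) for ASPM, both from GRCh38.p14.
HMMR: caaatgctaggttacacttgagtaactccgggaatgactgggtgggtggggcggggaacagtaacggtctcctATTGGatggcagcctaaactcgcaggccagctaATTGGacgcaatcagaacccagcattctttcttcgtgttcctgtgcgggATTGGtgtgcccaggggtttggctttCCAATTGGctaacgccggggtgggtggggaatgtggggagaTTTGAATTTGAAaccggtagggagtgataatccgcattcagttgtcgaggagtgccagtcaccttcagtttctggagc
ASPM: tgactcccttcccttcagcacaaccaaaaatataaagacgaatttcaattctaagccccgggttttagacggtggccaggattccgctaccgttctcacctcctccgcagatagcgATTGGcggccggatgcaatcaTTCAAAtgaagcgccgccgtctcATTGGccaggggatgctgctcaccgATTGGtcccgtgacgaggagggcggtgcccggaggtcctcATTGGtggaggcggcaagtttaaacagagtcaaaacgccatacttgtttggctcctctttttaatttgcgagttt
HMMR held 5 CCAAT boxes, 2 of which share bases, and 2 TTTGAA elements, and ASPM held 4 CCAAT boxes and 1 TTTGAA element, read as TTCAAA. Among the 1211 tested genes with TTTGAA in the window, the median log2 difference was -0.050, with 5.95% separated downward, against 4.41% of the 10578 genes without it. A match of letters is no evidence that a factor bound there.

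DNA replication genes of the G1/S list had 42 of 45 log2 differences below 0, and 2 of the 45 were separated downward (4.44%, against 4.72% of all genes). Their median was -0.17, and it moved to 0.04 without control replicate 1. POLA1, the catalytic subunit of DNA polymerase alpha, stood at 14.3 to 20.7 CPM in controls and at 11.7 to 14.2 CPM under FMD. Cholesterol synthesis genes had 23 of 26 log2 differences below 0, 4 of them separated downward (15.4%, against 4.72% of all genes) and 0 upward, with a median of -0.16. STARD4, a carrier of free cholesterol, stood at 25.9, 24.7 and 25.8 CPM in controls and at 17.5, 15.5 and 18.5 CPM under FMD, and DESeq2 called it. HMGCS1, which makes the substrate of HMG-CoA reductase, stood at 220, 295 and 220 CPM in controls and at 186, 209 and 148 CPM under FMD. CCAAT occurred in 75.0% of the 20 windows of this list, against 36.6% of tested genes with a window. It was also frequent in the G2/M and G1/S lists, at 78.4% and 56.4%. Other motifs were frequent here too: GGCGCC and TGACG each occurred in 55.0%, against 29.7% and 33.2% of tested genes. Both promoters are shown because NF-Y, the factor that binds CCAAT, is a partner of the sterol-sensing factor SREBP at such genes.
STARD4: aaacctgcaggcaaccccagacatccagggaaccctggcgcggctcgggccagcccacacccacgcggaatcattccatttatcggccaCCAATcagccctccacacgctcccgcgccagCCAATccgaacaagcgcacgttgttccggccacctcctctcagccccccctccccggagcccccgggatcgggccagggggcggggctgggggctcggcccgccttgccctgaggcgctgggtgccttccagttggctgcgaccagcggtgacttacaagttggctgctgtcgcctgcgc
HMGCS1: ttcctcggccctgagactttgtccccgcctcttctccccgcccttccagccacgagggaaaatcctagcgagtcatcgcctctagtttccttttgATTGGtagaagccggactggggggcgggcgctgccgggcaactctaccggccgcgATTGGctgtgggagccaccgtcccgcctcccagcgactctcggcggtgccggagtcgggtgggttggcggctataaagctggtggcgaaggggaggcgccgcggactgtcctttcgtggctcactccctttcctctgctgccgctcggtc
The windows are chr5:111512486-111512785 for STARD4 and chr5:43313363-43313662 for HMGCS1, both minus strand on GRCh38.p14, with CCAAT in capitals on either strand. The boxes began at -161 and -130 in STARD4 and at -155 and -100 in HMGCS1. Of 10 motifs searched, the sterol element CACCCCAC was found in 1 of the 20 windows.

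**Figure D3:**
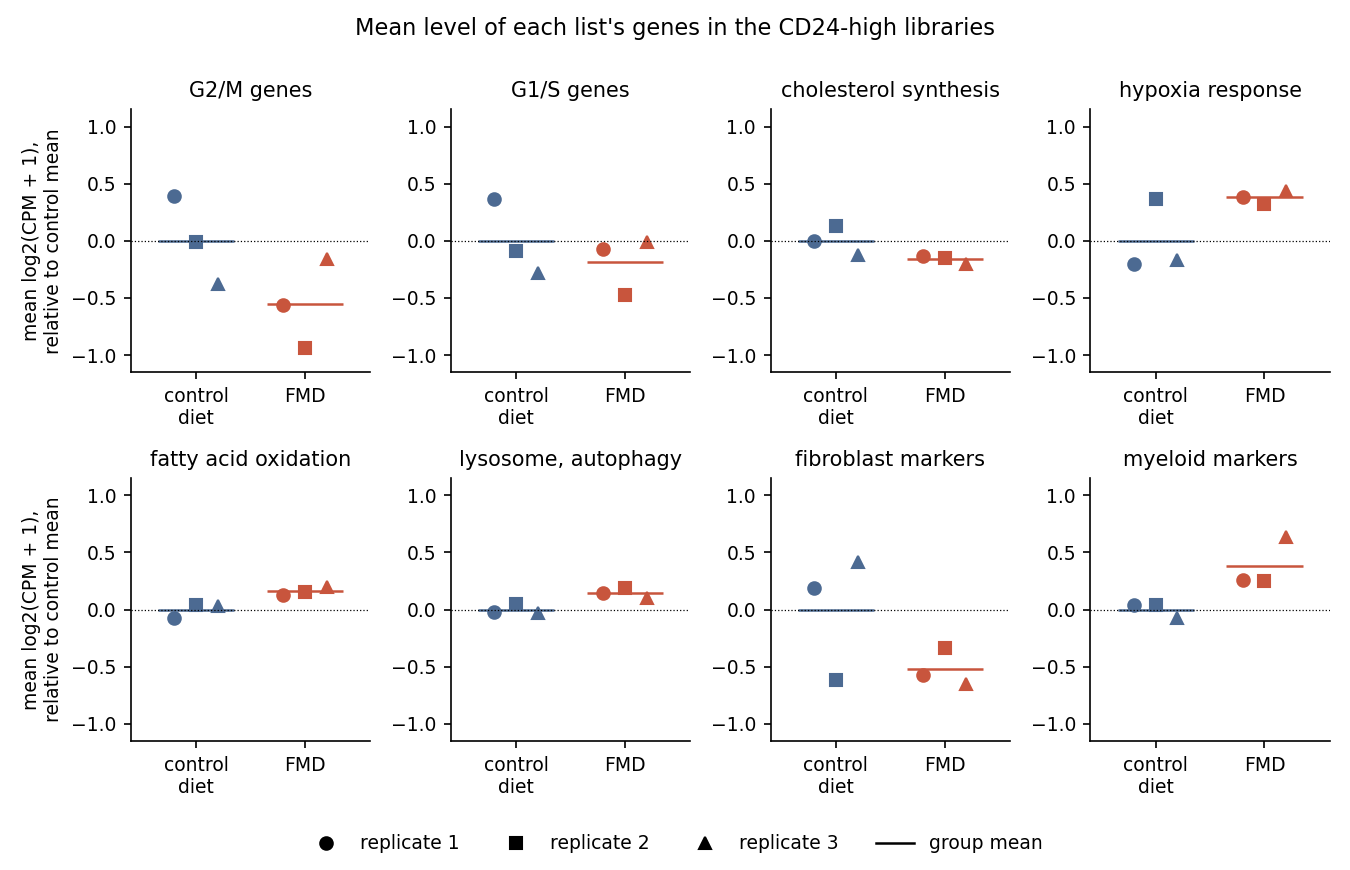
Mean log2(CPM + 1) of the genes of 8 lists in each CD24-high library, minus the mean of the 3 control libraries. Points are libraries, shapes replicate numbers and lines group means; in the hypoxia and fibroblast panels control replicate 2 lies among the FMD libraries, and in the G2/M panel FMD replicate 3 lies above control replicate 3.

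Among single genes that were lower, TP53AIP1 had the smallest p in edgeR. It encodes a p53-induced mitochondrial protein and stood at 4.82, 4.45 and 5.12 CPM in controls and at 1.39, 1.92 and 2.18 CPM under FMD, from 470 and 192 counts in all. The log2 difference was -1.39 ± 0.24, with an adjusted p of 0.257 in edgeR and 0.000428 in DESeq2, and up to 0.891 over the alternatives. TP53AIP1 lies on chromosome 11 at 128934731 to 128942871. PLK2, a polo-like kinase that p53 induces, stood at 117, 134 and 202 CPM in controls and at 68.7, 91 and 79.8 CPM under FMD. POLH, the translesion polymerase eta, stood at 15.3 to 17.4 CPM and 9.96 to 11.8 CPM. The list of 25 tested p53 targets, which holds TP53AIP1 but not PLK2 or POLH, had 18 positive log2 differences and a median of 0.05. KITLG, the ligand of KIT, stood at 28.9 to 33.3 CPM in controls and at 19.9 to 22.9 CPM under FMD. JAG1, a Notch ligand, stood at 228, 204 and 338 CPM in controls and at 164, 164 and 145 CPM under FMD, 1.63-fold lower. The Notch target HES1 was higher, at 246, 341 and 228 CPM in controls and 375, 402 and 495 CPM under FMD. Of 23 tested Notch genes, 13 had a positive and 10 a negative log2 difference, with a median of 0.12. Separated downward were 2, JAG1 and HEYL (8.7%, against 4.72% of all genes). Only HES1 was separated upward (4.35%, against 4.48% of all genes). PADI3, which converts arginine to citrulline in proteins, stood at 27.5 to 34.8 CPM and 13.3 to 19.7 CPM.

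Of 45 tested matrix genes, 16 had a positive and 29 a negative log2 difference, with a median of -0.06. All FMD libraries lay below all controls for 4 of them (8.89%, against 4.72% of all genes) and above for 0, and none of the 45 passed in edgeR or DESeq2. DESeq2 did call COL5A3, a collagen chain outside this list that was chosen after its values were seen. It stood at 451, 269 and 714 CPM in controls and at 177, 187 and 207 CPM under FMD, a log2 difference of -1.33 ± 0.36. The genes described next are matrix and vessel-wall genes from several lists, some of them chosen after their values were seen. COL1A1, the main fibrillar collagen chain, stood at 14790, 8961 and 14237 CPM in controls and at 6977, 8200 and 8808 CPM under FMD, a log2 difference of -0.66 ± 0.20 and, without control replicate 2, of -0.84. COL6A1 stood at 2131, 1259 and 3130 CPM in controls and at 942, 1121 and 1146 CPM under FMD. In both, control replicate 2 was the lowest control and lay nearest to the FMD libraries. HEYL, a Notch target typical of vessel-wall cells, stood at 28.5, 8.58 and 70.6 CPM in controls and at 3.53, 3.3 and 5.56 CPM under FMD, and DESeq2 called it. LAMA4, a laminin of vessel basement membranes, stood at 96.8, 27.6 and 186 CPM in controls and at 22.7 to 28.3 CPM under FMD, which overlap. CD248 (endosialin, a pericyte and fibroblast surface protein), PLXDC1 and OLFML2B were chosen for mention after their values were seen. PLXDC1 stood at 44.3, 15.2 and 113 CPM in controls and at 7.08, 8.31 and 10.9 CPM under FMD. CD248 stood at 3.51, 1.48 and 11.5 CPM in controls and at 0.39 to 0.936 CPM under FMD. In each of HEYL, CD248, PLXDC1 and OLFML2B the controls were ordered alike, with replicate 3 highest and replicate 2 lowest. Without control replicate 3 the log2 difference of HEYL went from -3.12 to -2.16, of PLXDC1 from -2.71 to -1.76, of CD248 from -2.88 to -1.74 and of OLFML2B from -2.30 to -1.49. Without control replicate 2 these were -3.56, -3.14, -3.29 and -2.71, and that of LAMA4 went from -2.07 to -2.50. FMO2, also chosen after its values were seen, had 276 counts in the control libraries and 2 under FMD, and stood at 1.31, 0.241 and 6.44 CPM in the controls.

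**Figure D4:**
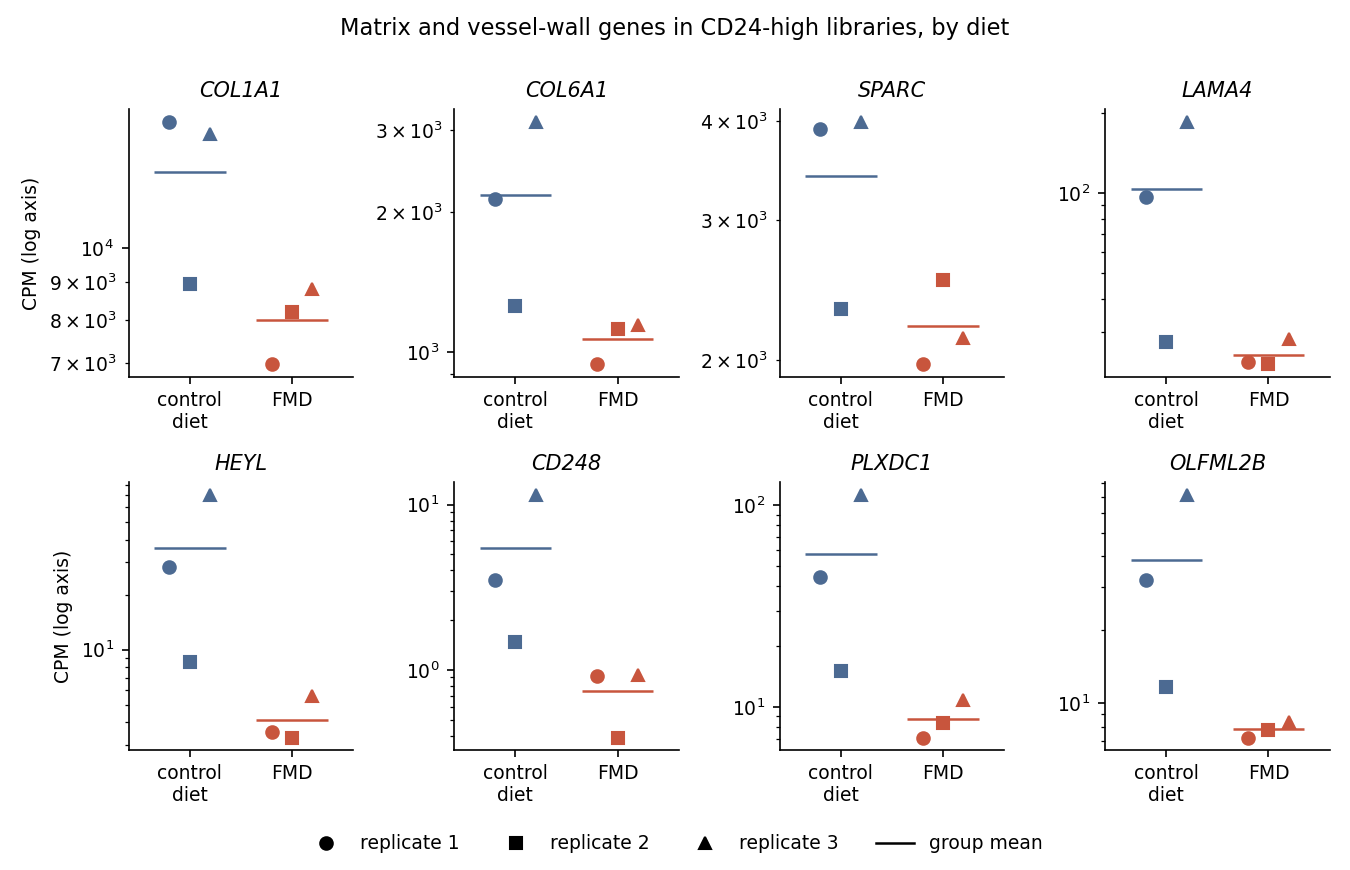
CPM on log axes for 8 matrix and vessel-wall genes in the 6 CD24-high libraries. Points are libraries, shapes replicate numbers and lines arithmetic group means; control replicate 2 is the lowest control in every panel, at 15.2 CPM for PLXDC1 against 44.3 and 113 CPM in the other controls.

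The sum of the 15 fibroblast markers followed the same order. It was 28992, 17739 and 32313 CPM in control replicates 1, 2 and 3 and 16062, 19411 and 17397 CPM under FMD. COL1A1, described above, was its largest part in every library and COL3A1 the next, so the sum is no separate readout of 15 markers. Single markers differed: LUM and PDGFRB followed this order, while PDPN, PDGFRA and DPT were highest among controls in replicate 2. The median log2 difference of the list was -0.66, and it was -0.84 without control replicate 2. Of the 15, 2 were separated downward (COL1A1 and THBS2, 13.3% against 4.72% of all genes). Separated upward was 1 (PDPN, 6.67% against 4.48% of all genes), and 0 were at 0. LUM, a proteoglycan of fibroblasts, stood at 15.4, 1.07 and 27.4 CPM in controls and at 0.472, 2.07 and 0.728 CPM under FMD, and PDGFRB at 151, 62.1 and 421 CPM and 67.7 to 82.9 CPM. SUM159 cells are mesenchymal and express several of these genes themselves. The sources used here do not say whether reads from the mouse host were removed, and the part of host or stromal RNA in the lower matrix genes was not tested. Endothelial markers summed to 30.2 to 36.7 CPM and 33.3 to 37.4 CPM, with 10 of 13 at a mean under 1 CPM. Muscle and fat markers summed to 10.3 to 16.6 CPM and 5.19 to 12.4 CPM, and red blood cell markers to 0.357 to 5.34 CPM and 1.17 to 2.94 CPM. Lymphoid markers summed to 19.2 to 44 CPM and 19 to 38.9 CPM, with CD3E, CD3G, CD2 and CD8A at 0 in all 6 libraries. Most of the lymphoid sum was IL7R, at 18.3 to 43.1 CPM in controls and 18.6 to 38.5 CPM under FMD. The other 13 of the 14 lymphoid markers had a mean under 1 CPM.

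No gene of the nutrient-sensing pathways passed in edgeR, and DESeq2 called 1 of them, IGFBP4. None of 39 tested PI3K and mTOR genes, 39 protein kinase A and cyclic AMP genes, 24 FOXO and fasting genes or 14 insulin and IGF genes passed in edgeR, and their medians were -0.02, 0.01, 0.10 and 0.05. Since 0% of all genes passed in edgeR, these counts of 0 are no result about the lists. Of the same lists in the same order, 7.69%, 2.56%, 4.17% and 0% were separated downward, against 4.72% of all genes. Separated upward were 0%, 2.56%, 12.5% and 7.14%, against 4.48%. In a list of 20 genes recalled from what is known of the study, 0 passed in either direction in edgeR or DESeq2. Of these, 2 were separated downward, CREB1 and PIK3CA (10%, against 4.72% of all genes), and 0 upward. PRKACA, the protein kinase A catalytic subunit, had a log2 difference of -0.05 ± 0.11, CREB1 of -0.14 ± 0.11, the stem cell factor KLF5 of 0.13 ± 0.33 and the histone methyltransferase gene EHMT2 of 0.05 ± 0.10. KLF5 was wide among libraries, at 93.8, 182 and 106 CPM in controls and 160, 147 and 109 CPM under FMD. SESN3, which restrains mTORC1 under nutrient stress and is a FOXO target, stood at 265, 211 and 312 CPM in controls and at 203, 203 and 153 CPM under FMD. Ribosomal protein genes had a median of 0.06 and genes of oxidative phosphorylation one of -0.02, with 0 of 76 and 0 of 73 separated in either direction. A difference that misses the threshold with 3 libraries per diet does not show that levels were equal.

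The same diets were compared in CD24-low cells, and the difference between the 2 comparisons was tested as an interaction. edgeR called 638 genes, or 4.13%, in that test, which treats the 12 libraries as independent. With a block for each diet and replicate number it called 1702, of which 620 were among the 638; the labels do not say whether same-numbered fractions came from the same tumour. ID1, NNMT and TP53AIP1 had interaction adjusted p of 0.748, 0.246 and 0.459, with log2 differences in CD24-low cells of 1.18, 0.34 and -1.99. Of the 670 genes called lower under FMD in CD24-low cells, 12.8% had a positive difference in CD24-high cells, the median there was -0.18, and 17.9% were separated downward and 1.04% upward. Of the 1863 called higher in CD24-low cells, 61.3% were positive in CD24-high cells, with a median of 0.06, and 8.37% were separated upward and 3.44% downward. Over all genes 49% were positive, 4.48% separated upward and 4.72% downward. The interaction called 617 of those 1863 genes and 8 of the 670. The part of the lower counts of the CD24-low FMD libraries in these calls was not tested. COL1A1 had opposite signs in the fractions, 0.89 in CD24-low and -0.66 in CD24-high cells, and the interaction was called at an adjusted p of 0.00876. IGF1R stood at 63.5, 76.2 and 77.9 CPM in CD24-high controls and at 89.7, 99.8 and 68.9 CPM under FMD, a log2 difference of 0.25 ± 0.18 against 1.43 in CD24-low cells, with an interaction adjusted p of 0.0213. The G2/M median was -0.69 in CD24-low cells and -0.60 in CD24-high cells, the cholesterol median -0.41 and -0.16, and the fibroblast marker median 0.88 and -0.66, differences between medians that were not tested.

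**Figure D5:**
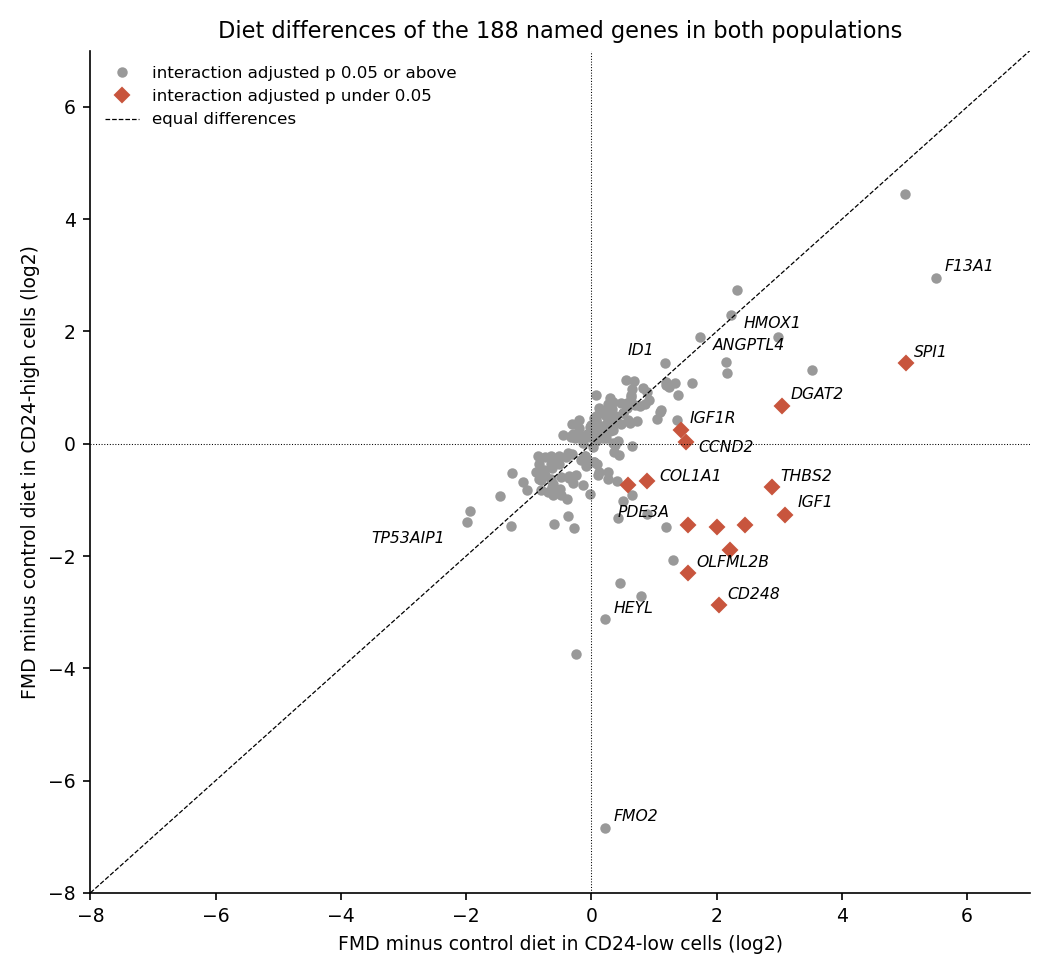
Log2 fold change, FMD minus control, in CD24-high cells (vertical) against CD24-low cells (horizontal) for the 188 named genes; the dashed line marks equal differences. Diamonds are genes whose interaction passed an adjusted p of 0.05, and they lie below the line, among them COL1A1 at 0.89 in CD24-low and -0.66 in CD24-high cells.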

How the data were processed

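Sorted cells from SUM159 tumours were sequenced as stranded mRNA libraries. The deposited files hold read counts per gene. The submitters' processing notes name STAR and the hg38 build. Neither the version of STAR nor the annotation is given in the sources used here. Reverse-strand counts (column 4) of the authors' tables were used as deposited, and they carry no unassigned or mitochondrial rows. In the files, 25311 of 26475 symbols matched RefSeq.

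Genes were filtered with edgeR's filterByExpr, scaled with TMM and tested with the quasi-likelihood test (R 4.3.3, edgeR 4.0.16) in 1 fit of all 4 groups with 8 residual degrees of freedom; the interaction came from the same fit. P-values were adjusted by Benjamini-Hochberg over all tested genes. The standard error of a log2 fold change was its size over the root of its F statistic. CPM used TMM-scaled library sizes. Principal components used log2 CPM with a prior count of 2, and mean list levels a pseudocount of 1. DESeq2 1.42.0 was an alternative, as were other scalings, strand choices, filters, sample sets, the replicate block and leaving out each library. The code was tested on simulated data.

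Named genes were CD24 and CD44, the 12 smallest p-values in each direction at 2 CPM or more, and the recalled list. Up to 4 members of each pathway list were added. Up to 10 per direction were added from genes called by any alternative that kept the strand choice and all compared libraries. These were ranked by how many such alternatives called them. Apart from ID1, each was called by DESeq2 alone. A further 22, among them ID2, BAMBI, SMAD7, BMP2, OXCT1, MKI67 and single cell type markers, were chosen after their values were seen. Some list members are not reported here. Members and all 42 lists were chosen with earlier results of these data known, and lists are described by counts and medians without a set test. Promoters and gene positions came from RefSeq (GRCh38.p14).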

Additional observations from a re-analysis of the deposited data

Results flagged for a closer look

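Of the 188 named genes, 14 had a diet difference in CD24-high cells that differed from that in CD24-low cells by the edgeR interaction test at an adjusted p of 0.05. Over all genes that test called 638 of 15461, or 4.13%. Each value below is the log2 difference in CD24-high cells minus that in CD24-low cells, and all 14 are negative. Of the 638 genes, 617 were called higher under FMD in CD24-low cells and 8 lower, so the shared sign is not particular to these 14. With a block for each diet and replicate number, CD248, OLFML2B and PDE3A were not called, at adjusted p of 0.0588, 0.114 and 0.126 in edgeR, and the other 11 were. COL1A1 had -1.55, the matrix gene THBS2 -3.66 and MYL9, a myosin light chain, -1.32. CD248 had -4.91, OLFML2B -3.84, the collagen receptor DDR2 -3.91 and the transcription factor NFATC4 -4.11. SPI1, the myeloid factor, had -3.58, with log2 differences of 1.44 in CD24-high and 5.02 in CD24-low cells. THBS2, CD248, OLFML2B, DDR2, NFATC4 and SPI1 were chosen after their values were seen. The growth factor genes IGF1 and IGF1R had -4.37 and -1.18. IGF1 was rare in CD24-high cells, at 0.2 to 0.655 CPM in controls and 0.09 to 0.286 CPM under FMD. The cyclin CCND2 had -1.48, the phosphodiesterase PDE3A -3.00, the triglyceride enzyme DGAT2 -2.37 and the tetraspanin TSPAN5 -3.51. DGAT2 stood at 4.1, 7.69 and 6.13 CPM in CD24-high controls and at 12.5, 8.37 and 7.8 CPM under FMD, a log2 difference of 0.68, against 3.04 in CD24-low cells. TSPAN5 stood at 1.07 to 1.37 CPM in CD24-high controls and at 0.315 to 0.572 CPM under FMD.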

How the results depend on the processing

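The edgeR count of 0 became 1, higher and always ID1, with no count filter, under the replicate block and without control replicate 2; leaving out single libraries gave 0 to 1, and 0 lower. DESeq2 called 74 genes, 34 higher and 40 lower, and 12 to 299 with a library left out, a choice made after seeing the data. Genes whose libraries do not overlap numbered 1421, and 2544 to 3627 with 1 library fewer, since fewer libraries overlap less often. The interaction gave 638 genes, 1135 with DESeq2 and 403 to 557 with a library left out. Of 188 named genes, 0 changed sign while called, 13 changed sign while uncalled under some alternative, and 43 of the 46 calls gained came from DESeq2. The median changed sign in 22 of the 42 lists under some alternative.

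The replicate numbers did not pair libraries across diets: same-numbered libraries deviated from their group means with correlations of -0.14, -0.06 and -0.22. The replicate block in edgeR gave 1 gene (ID1) with all libraries, 0 with the 6 compared libraries alone, and 669 genes in the interaction. Same-numbered CD24-high and CD24-low libraries correlated at 0.44, 0.52 and 0.04 under control diet and at 0.44, 0.29 and 0.49 under FMD. The labels do not say whether these share a tumour. A replicate block within each diet, chosen after seeing the data, gave 1702 genes in the interaction. With 3 libraries per diet and a median standard error of 0.185, small differences are not detectable here.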
